A study of Mus musculus with 109 samples.

Results

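The mouse potassium channel genes were followed in bulk RNA-seq of whole retinas taken after an injection of inflammatory cytokines into the vitreous. Members were every row of the count table whose gene is annotated by GENCODE as protein-coding and has a symbol of the form Kcn followed by letters and a number, except Kcnj10, and 92 of 37315 genes met that rule. They were 30 voltage-gated pore-forming subunits, 10 silent voltage-gated modifiers, 8 calcium- or sodium-activated channels, 14 inward rectifiers, 14 two-pore domain channels and 16 auxiliary subunits. The data were counts from 109 retinas of 64 C57BL/6J mice of both sexes, 2 to 4 months old, and 45 of these mice gave both retinas. A retina received PBS (the vehicle), TNF, IL1A, or IL1A and TNF together (IL1A+TNF). A mouse that gave both retinas had PBS in at least 1 of them. In the first batch wild-type (WT) retinas were taken 2 days after injection (31 PBS, 8 TNF, 9 IL1A and 10 IL1A+TNF), 14 days after it (7 PBS and 6 TNF) or 35 days after it (6 PBS and 9 TNF), and batches are those the sample labels name. In the second batch retinas were taken at day 2 from WT mice (5 PBS and 6 IL1A+TNF) and from Sarm1-/- mice (6 PBS and 6 IL1A+TNF). Sarm1-/- mice lack the axon degeneration enzyme SARM1 in every cell of the body, so a genotype difference cannot be assigned to a cell type. Libraries held between 30014757 and 79064488 counted reads (median 39374202). Levels are given as CPM, a gene's reads per 1000000 counted reads, with library sizes scaled by TMM over all 109 retinas.

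Potassium channels let potassium leave the cell and so set the resting potential, end action potentials and pace firing. Voltage-gated subunits assemble as tetramers that open on depolarization, and silent modifiers carry no current alone but join Kv2 subunits and change their gating. Inward rectifiers and two-pore domain channels hold the resting potential, calcium-activated channels follow intracellular calcium, and auxiliary subunits tune gating and surface delivery. In the retina, photoreceptors use Kv2 channels joined with Kv8.2 (Kcnv2) in the inner segment, fast spiking ganglion and amacrine cells use Kv3 channels (Kcnc1 and Kcnc2), Müller glia buffer potassium through Kir channels, and microglia and infiltrating leukocytes carry channels such as THIK-1 (Kcnk13), KCa3.1 (Kcnn4) and TWIK-2 (Kcnk6).

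Promoter sequence is shown for 4 members that moved with IL1A+TNF: Kcne2, which fell, and Kcng4, Kcnk13 and Kcnn4, which rose. Each line gives the 250 bases that end just before an annotated start, read 5′ to 3′ on the strand of the gene, from RefSeq on GRCm38.p6. The intervals were chr16:92292139-92292388 (plus strand) for Kcne2, chr8:119635681-119635930 (minus strand) for Kcng4, chr12:99964249-99964498 (plus strand) for Kcnk13 and chr7:24370013-24370262 (plus strand) for Kcnn4. Kcne2 has another RefSeq start, with the window chr16:92295366-92295615 (plus strand), which is not printed. All letters are in lower case because none of the 4 motifs searched was found in these windows.
Kcne2: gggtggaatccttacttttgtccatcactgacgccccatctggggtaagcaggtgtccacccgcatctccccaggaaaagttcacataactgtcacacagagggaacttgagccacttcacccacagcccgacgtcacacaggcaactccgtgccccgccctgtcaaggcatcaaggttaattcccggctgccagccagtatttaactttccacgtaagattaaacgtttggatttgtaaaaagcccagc
Kcng4: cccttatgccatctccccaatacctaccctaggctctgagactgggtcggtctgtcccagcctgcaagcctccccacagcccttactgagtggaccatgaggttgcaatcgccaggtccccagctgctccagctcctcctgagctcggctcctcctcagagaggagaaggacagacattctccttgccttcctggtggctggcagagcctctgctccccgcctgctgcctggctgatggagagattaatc
Kcnk13: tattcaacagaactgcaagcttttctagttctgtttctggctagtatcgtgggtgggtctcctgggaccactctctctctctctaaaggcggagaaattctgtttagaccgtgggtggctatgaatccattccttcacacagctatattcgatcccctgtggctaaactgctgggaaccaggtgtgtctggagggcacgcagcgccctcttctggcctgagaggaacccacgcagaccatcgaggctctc
Kcnn4: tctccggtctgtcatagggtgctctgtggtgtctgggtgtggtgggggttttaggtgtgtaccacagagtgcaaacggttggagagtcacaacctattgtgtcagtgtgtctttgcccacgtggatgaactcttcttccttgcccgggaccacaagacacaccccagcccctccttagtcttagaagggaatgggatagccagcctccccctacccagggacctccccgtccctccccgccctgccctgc
The motifs were searched on both strands and none contains another: TAATCC, bound by photoreceptor homeodomain factors, GAGGAAGT, bound by PU.1, the NF-κB motif, and TGANTCA, bound by AP-1. Of 32851 promoters, 6.25% held TAATCC, 2.44% held GAGGAAGT, 4.65% held the NF-κB motif and 6.75% held TGANTCA. The 67 members with a RefSeq start had 92 promoters, of which 1 held TAATCC, 0 held GAGGAAGT, 2 held the NF-κB motif and 4 held TGANTCA.

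Several retinas stood apart before any comparison was read. The median of the members' log2 levels, relative to WT PBS retinas of the same batch, was between -0.17 and 0.15 in the 31 WT PBS retinas of day 2 in batch 1. It was -2.24 and -2.17 in Sarm1-/- IL1A+TNF replicates 4 and 5, against -0.70 in replicate 3 and between -0.15 and -0.04 in the other 3. In replicates 4 and 5 the median marker of retinal ganglion cells (RGCs) was at -3.10 and -3.34, that of amacrine cells at -2.73 and -2.92, and that of bipolar cells at -3.20 and -3.03, while rods were at -0.50 and -0.74. WT IL1A+TNF replicate 3 of batch 2 (-0.87) and IL1A replicate 8 (-0.34) were the lowest of their groups. Results of IL1A+TNF in the Sarm1-/- experiment are therefore given with and without replicates 4 and 5, which were left out after the data were seen. Sarm1 itself was between 26.2 and 53.2 CPM in Sarm1-/- retinas and between 84.1 and 126 CPM in WT retinas of batch 2, so its reads were reduced and not absent.

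The order of levels in vehicle-injected WT retinas spanned several orders of magnitude. Levels of different genes were compared per kilobase of exon in the 31 WT PBS retinas of day 2, batch 1. Highest was Kcnj14, the Kir2.4 inward rectifier, at 163 ± 20.8 CPM per kilobase (SD, n = 31). Kcnv2, whose loss causes a cone dystrophy with supernormal rod responses, was at 119 ± 12. The ranges of Kcnj14 (114 to 205) and Kcnv2 (98.8 to 148) overlapped. Other high members were Kcnab2, the cytoplasmic Kvβ2 subunit, at 56.9 ± 5.83, Kcna5 (Kv1.5) at 26.8 ± 2.38, Kcne2 (MiRP1, a single-pass subunit of many Kv channels) at 19.6 ± 3.09 and Kcnj9 (GIRK3, gated by G proteins) at 18.8 ± 1.26. Among the silent modifiers Kcng4 (Kv6.4) came after Kcnv2, at 8.6 ± 1.17. In the classes not yet named the leading genes were Kcnk1 (TWIK-1) at 14.6 ± 1.65, Kcnk3 (TASK-1) at 7.37 ± 0.63, Kcnma1 (the BK channel) at 6.9 ± 1.11 and Kcnt1 (a sodium-activated channel) at 3.9 ± 0.483. Kcnk16, a channel of pancreatic islets, was last, with no read in 30 of the 31 retinas.

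**Figure D1:**
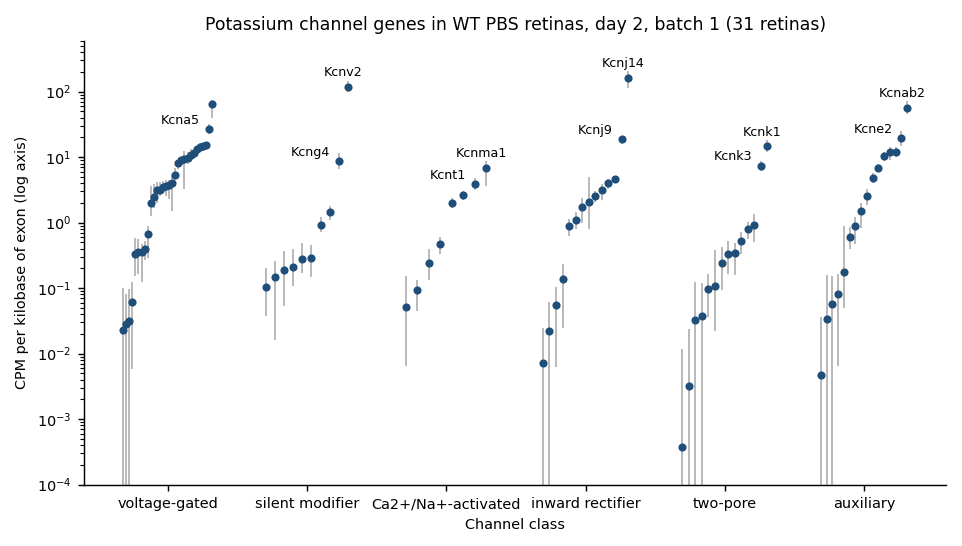
Level of each potassium channel gene in WT PBS retinas of day 2, batch 1 (n = 31), as CPM per kilobase of exon on a log axis, grouped by channel class. Points are means and bars run from the lowest to the highest retina, cut at the foot of the axis where a retina had no read, so that Kcnj14 at 163 and Kcnv2 at 119 stand highest.

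Of the 92 members, 82 had enough reads at day 2 to be tested. The other 10 were Kcna7, Kcna10, Kcne1, Kcne3, Kcnj1, Kcnk7, Kcnk15, Kcnk16, Kcnk18 and Kcnmb3.

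At day 2 after IL1A+TNF most potassium channel genes that changed were lower than after PBS. Relative to PBS, 43 of the 82 tested members fell, 6 rose and 33 did not pass the test (limma, false discovery rate (FDR) of 0.05 over all genes). Over all genes tested 50.4% were called, and 25.5% were called lower, against 52.4% of the tested members. The members' median log2 fold change was -0.21, that of all genes was -0.02, and 68 of the 82 estimates were below 0. The 8 members that fell by more than 0.5 on the log2 scale were Kcne1l, Kcne2, Kcnk5, Kcnj14, Kcnab2, Kcnv2, Kcng2 and Kcnip2. These are whole retinas, in which fewer cells of a type and less RNA per cell cannot be told apart. Markers moved in the same libraries: 8 of 9 RGC markers, 6 of 6 amacrine, 5 of 6 bipolar, 5 of 6 rod and 6 of 6 cone markers were called lower, and 6 of 8 microglia, 3 of 6 neutrophil and 4 of 4 monocyte markers higher. Of the microglia markers 1 was called lower, and of 5 Müller glia markers 1 was called higher and 2 lower. Their part in the members' changes was not tested.

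**Figure D2:**
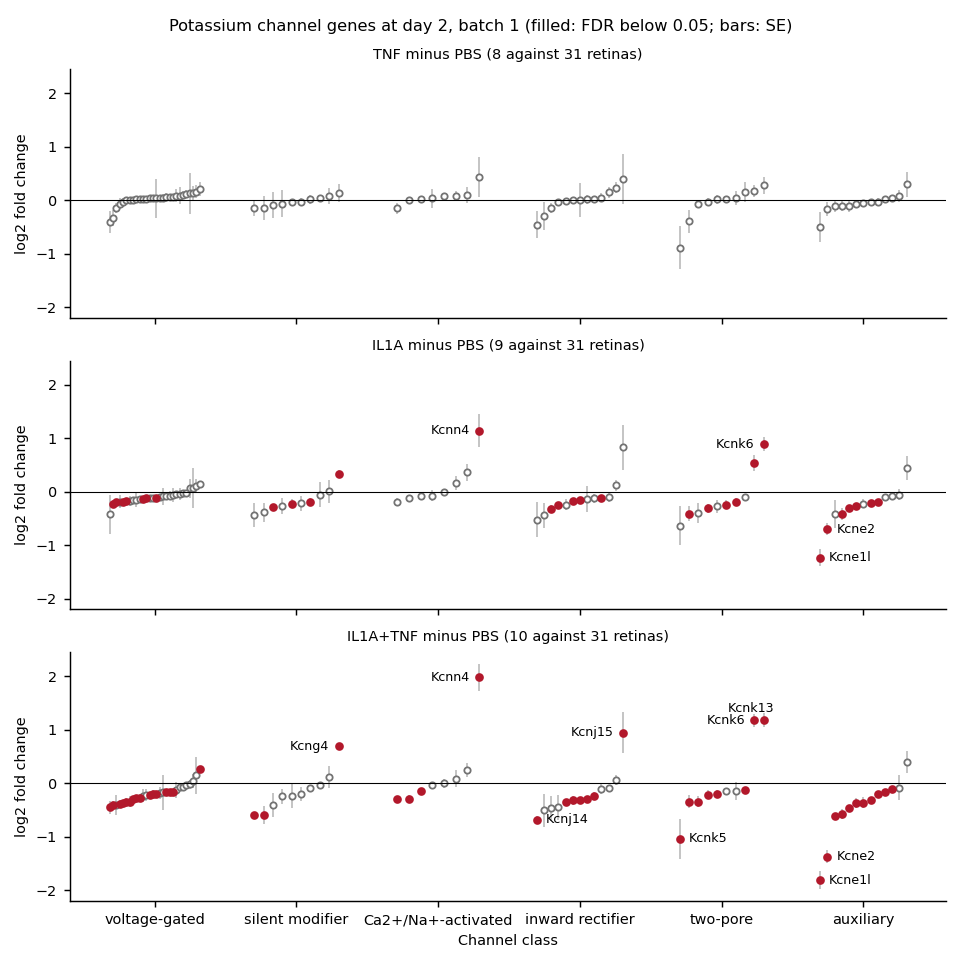
Log2 fold change of each tested potassium channel gene by class in the day 2 comparisons with PBS, with filled points for genes called at an FDR of 0.05, open points for the others and bars for the SE. With IL1A+TNF 43 members lay lower and 6 higher among those called, with IL1A 26 and 4, and with TNF 0 members were called.

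Among the voltage-gated pore-forming subunits, 15 of 28 tested members fell, 1 rose and the class median was -0.20. Kcnb2 (Kv2.2) fell from a median of 10.6 CPM in PBS retinas (4.31 to 13.7) to 7.23 (4.78 to 9.02), a log2 change of -0.45 (SE 0.12, FDR = 0.00146), and the groups overlapped. Kcnd2 (Kv4.2, the A-type current of dendrites) changed by -0.40 (SE 0.07, FDR = 1.63e-06), with PBS retinas at 14.7 to 22.5 CPM and IL1A+TNF retinas at 11.1 to 19. Kcnh6 (Kv11.2) changed by -0.38 (SE 0.06, FDR = 8.06e-07). Kv3 channels of fast spiking cells were among those that fell. Kcnc1 went from 141 CPM (118 to 157) to 110 (91.6 to 133), a change of -0.37 (SE 0.04, FDR = 1.49e-10), and Kcnc2 changed by -0.28 and Kcnc4 by -0.30. Kcnh2 (the ERG channel) changed by -0.21. Kcnh1 (EAG1) was the class's single riser at 0.27 (SE 0.06, FDR = 0.000347). Kcna1 and Kcna5 did not pass the test (-0.07 and -0.06), nor did the lymphocyte and microglia channel Kcna3 (-0.22, FDR = 0.0843).

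The silent modifiers split in direction, with 1 of 10 tested members higher and 2 lower. Kcnv2 fell by 0.60 on the log2 scale (SE 0.06, FDR = 4.54e-13). Its 31 PBS retinas held 505 to 758 CPM (median 602) and its 10 IL1A+TNF retinas 319 to 594 (median 397). Kcng4, also a partner of Kv2 subunits, rose by 0.69 (SE 0.07, FDR = 4.05e-13), from 25.3 to 43.9 CPM (median 32.4) to 37.7 to 62.4 (median 53.9). In both genes the groups overlapped at their extremes. Kcng2 (Kv6.2) changed by -0.59 (SE 0.17, FDR = 0.00333) at a low level, 0.323 to 1.16 CPM in PBS retinas and 0.28 to 0.623 after IL1A+TNF.

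Among the calcium- and sodium-activated channels 1 of 8 rose and 3 fell. Kcnn4, the KCa3.1 channel of lymphocytes, macrophages and microglia, rose by 1.98 on the log2 scale (SE 0.26, FDR = 5.46e-09), the largest rise among the tested members. It held 0.0334 to 0.775 CPM in PBS retinas (median 0.208) and 0.461 to 2.06 after IL1A+TNF (median 0.996), so the groups overlapped at a low level. The neuronal channels were lower: Kcnma1 changed by -0.29 (SE 0.08), Kcnn2 by -0.30 (SE 0.05) and Kcnn1, which like Kcnn2 is a small-conductance channel of the afterhyperpolarization, by -0.15 (SE 0.05). Kcnt1 did not pass the test (-0.04).

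Inward rectifiers had 6 of 13 tested members lower and 1 higher, with a median of -0.31. Kcnj14 held 310 to 558 CPM in PBS retinas (median 453) and 205 to 376 after IL1A+TNF (median 275). The groups overlapped, and the log2 change was -0.68 (SE 0.07, FDR = 1.52e-11). The G protein-gated subunits Kcnj3 (GIRK1) and Kcnj9 changed by -0.34 (SE 0.05) and -0.31 (SE 0.04), and Kcnj3 went from 21.4 to 27.1 CPM to 12.5 to 22.6. Kcnj11, the Kir6.2 pore of the ATP-sensitive channel, changed by -0.32 (SE 0.09), and Kcnj2 (Kir2.1) by -0.29 (SE 0.05). Kcnj15 (Kir4.2) was called higher at 0.95 (SE 0.39, FDR = 0.0375) on 0 to 0.389 CPM in PBS retinas and 0.0218 to 0.438 after IL1A+TNF. It is named here, with Kcnk5, after its values were seen. The pericyte and smooth muscle channel Kcnj8 was at 0.06 and did not pass. The Kir7.1 channel of the retinal pigment epithelium (RPE), Kcnj13, was at -0.45 (FDR = 0.0961) and Kcnj16, the Kir5.1 partner of Kir4 channels, at -0.50 (FDR = 0.171). Of the 1270 exonic bases of Kcnj13, 623 (49.1%) overlap Gigyf2 on the other strand, and since use of strand in the counting is not stated, reads of both genes cannot be told apart. The same limit holds, among others, for Kcnj3 and Kcnmb4, of whose exonic bases 31.1% and 31.5% overlap genes on the other strand. RPE markers, 4 of 5 of which were lower, summed to 16.4 to 239 CPM in PBS retinas and 5.21 to 47.9 after IL1A+TNF.

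Of the 10 tested two-pore domain channels 2 rose and 6 fell. Kcnk6 was between 0.666 and 2.06 CPM in PBS retinas (median 1.38) and between 2.44 and 3.98 after IL1A+TNF (median 3.14). The groups did not overlap, and the log2 fold change was 1.18 (SE 0.12, FDR = 4.03e-12). Kcnk13, the channel that sets the resting potential of microglia, rose by 1.19 (SE 0.13, FDR = 3.09e-11), from 0.287 to 1.3 CPM (median 0.691) to 0.946 to 2.25 (median 1.73), with overlap. Microglia markers summed to 59.3 to 110 CPM in PBS and 121 to 230 after IL1A+TNF, neutrophil markers to 1.08 to 65.6 and 35.9 to 341, and monocyte markers to 1.97 to 19 and 31 to 67.9. No marker of these lists was at 0 in every retina of either group. The other 6 called members of the class were lower: Kcnk9 (TASK-3) and Kcnk12 at -0.34, Kcnk4 (TRAAK) at -0.21, Kcnk1 at -0.19, Kcnk3 at -0.13, and Kcnk5 (TASK-2) at -1.04 (SE 0.37, FDR = 0.0144). Kcnk5 held 0.076 to 1.31 CPM in PBS retinas and 0.0218 to 0.323 after IL1A+TNF.

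Auxiliary subunits were the class with the largest share lower, 11 of 13 tested members, and the lowest median, -0.36. Kcne2 held 25.9 to 44.2 CPM in PBS retinas (median 34.4) and 7.81 to 27.5 after IL1A+TNF (median 12.1), a log2 change of -1.37 (SE 0.12, FDR = 1.25e-14). The groups overlapped between 25.9 and 27.5 CPM. Kcne1l, a related single-pass subunit, fell by 1.81 (SE 0.17, FDR = 1.21e-13), from 1.27 to 3.06 CPM (median 2.48) to 0.367 to 1.36 (median 0.619). Kcnab2 fell by 0.61 (SE 0.06, FDR = 3.83e-12), from 258 to 404 CPM (median 319) to 173 to 272 (median 206). Its relatives Kcnab1 and Kcnab3 changed by -0.11 and -0.31. The calcium-binding KChIP subunits of Kv4 channels were lower without exception, Kcnip1 at -0.19, Kcnip2 at -0.57, Kcnip3 at -0.17 and Kcnip4 at -0.47, as were the BK subunits Kcnmb2 (-0.36) and Kcnmb4 (-0.37). Kcne4 and Kcnmb1 did not pass the test. Rod markers summed to 34300 to 53600 CPM in PBS retinas and 22100 to 40200 after IL1A+TNF, and cone markers to 763 to 1140 and 223 to 867.

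**Figure D3:**
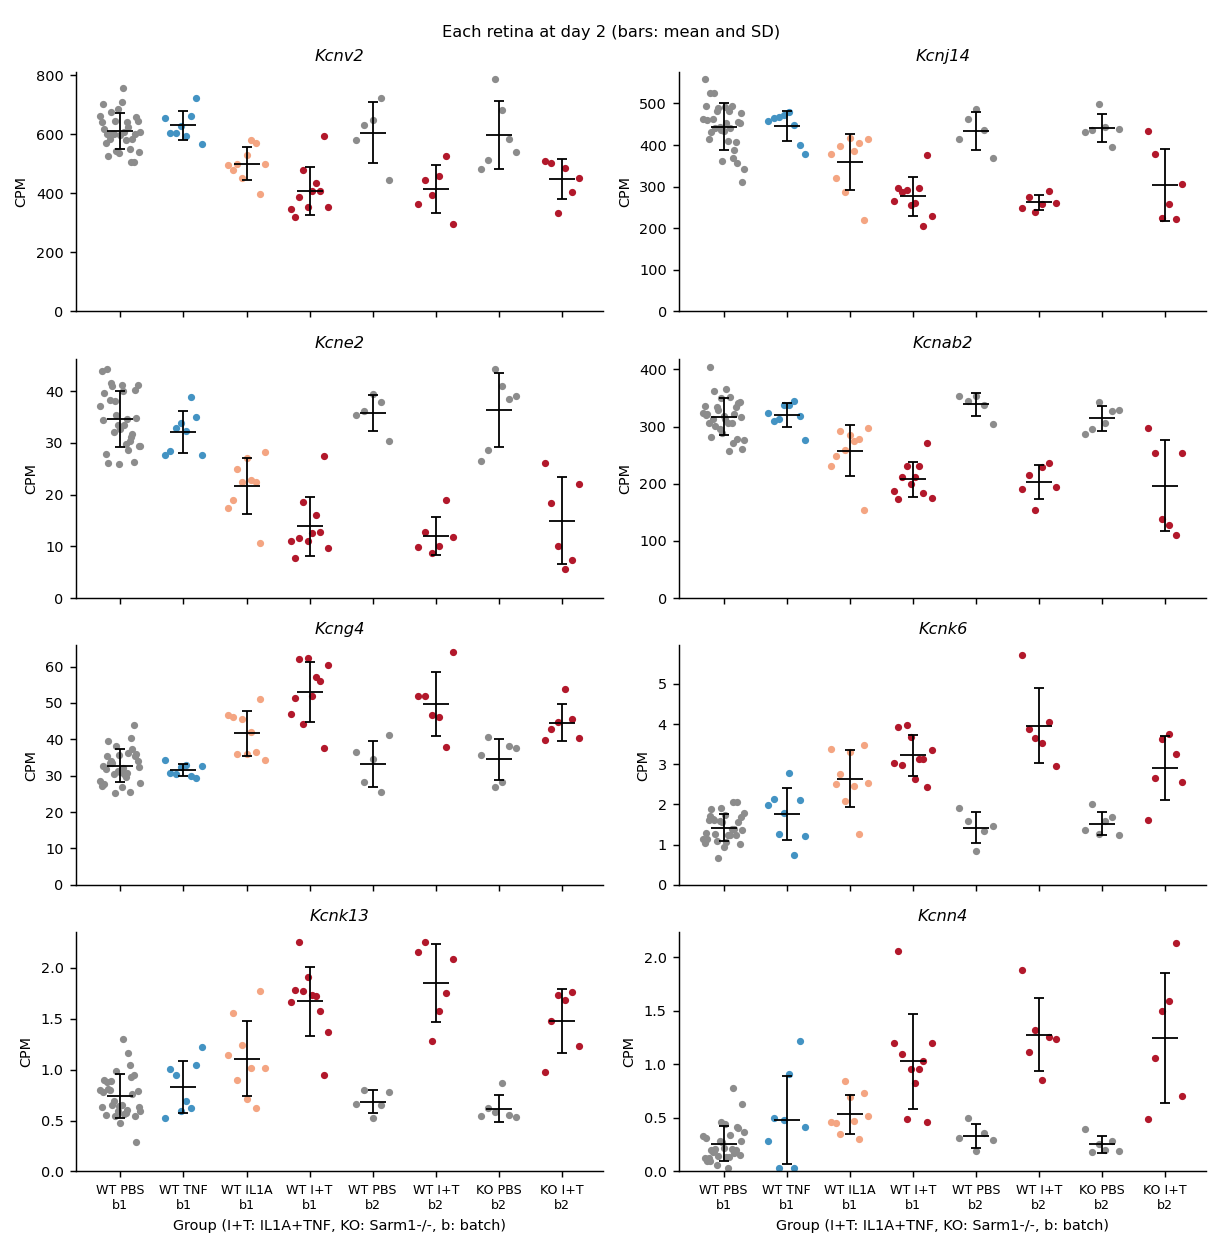
Level of 8 potassium channel genes in every retina of day 2, as CPM, by treatment, genotype and batch. Points are retinas, and bars mark the mean and SD of each group. In batch 1 the IL1A+TNF retinas of Kcnk6 (2.44 to 3.98 CPM) lie wholly above the PBS retinas (0.666 to 2.06 CPM), and the median of the IL1A retinas lies between those of the PBS and the IL1A+TNF retinas in each gene shown.

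Genes that work with these channels were called at about the rate of all genes. Of 23 partner genes (among them the excluded Kcnj10, sodium-potassium pump subunits, potassium-chloride cotransporters, and ancillary subunits without a Kcn symbol), 22 were tested, 3 rose, 9 fell and the median was -0.15. The share called was 54.5%, against 50.4% of all genes, of which 25.5% were called lower. Kcnj10, the main Kir4.1 channel of Müller glia, rose by 0.48 on the log2 scale (SE 0.07, FDR = 7.07e-08), and the cotransporter Slc12a4 by 0.43. The pump subunit Atp1b1 (-0.36), the neuronal chloride extruder Slc12a5 (-0.33), the Kv4 partners Dpp6 (-0.18) and Dpp10 (-0.22), and Abcc8 (-0.36), the sulfonylurea receptor that joins Kcnj11, fell.

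IL1A alone, TNF alone and their combination were then set side by side. These comparisons share the PBS retinas of day 2 and are not independent of one another. After IL1A alone 26 of 82 tested members fell and 4 rose (21.4% of all genes were called, and 9.45% were called lower), with a median of -0.14. Kcne1l changed by -1.23 (SE 0.16, FDR = 9.46e-09), Kcnk6 by 0.89 (SE 0.13, FDR = 5.38e-07), Kcne2 by -0.70 (SE 0.11, FDR = 2.08e-06), Kcnj3 by -0.25 (SE 0.05, FDR = 0.000123) and Kcng4 by 0.34 (SE 0.07, FDR = 0.000204). Kcnn4 (1.14) and Kcnk13 (0.54) were the other members that rose. Leaving out IL1A replicate 8, the retina with the lowest neuronal markers of its group, brought the calls to 17 members, where 15.4% of all genes were called. With mouse as a fixed factor, a fit that kept only mice with both retinas in it, 12 members and 10.2% of all genes were called. Markers moved in the IL1A retinas too: 7 of 9 RGC, 5 of 6 amacrine, 2 of 6 bipolar, 5 of 6 rod and 5 of 6 cone markers were called lower, and 7 of 8 microglia, 4 of 6 neutrophil and 3 of 4 monocyte markers higher. Their part in the members' changes was not tested.

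TNF alone gave 0 called members at day 2 by limma, by edgeR and by DESeq2, with 3, 6 and 7 of 82 at an unadjusted p under 0.05, and 0.655% of all genes were called. Kcne2 held 27.7 to 38.9 CPM after TNF (median 32.6) and changed by -0.11 (SE 0.11), Kcnv2 held 568 to 724 CPM (median 617) and changed by 0.05 (SE 0.06), and Kcnk6 held 0.752 to 2.78 CPM (median 1.88) and changed by 0.28 (SE 0.16). After IL1A the same genes stood between the PBS and IL1A+TNF levels: Kcne2 at 10.6 to 28.1 CPM (median 22.5), Kcnv2 at 398 to 580 (median 498) and Kcnk6 at 1.27 to 3.48 (median 2.52).

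Addition of TNF to IL1A was tested directly. Between IL1A+TNF and IL1A retinas 10 members differed, 2 higher and 8 lower, where 10.1% of all genes were called. The 5 with the smallest FDR were Kcne2 (-0.67, FDR = 0.00196), Kcnv2 (-0.32, FDR = 0.00277), Kcng4 (0.35, FDR = 0.00473), Kcnk13 (0.65, FDR = 0.00825) and Kcnj14 (-0.35, FDR = 0.0097). Between IL1A+TNF and TNF retinas 42 members differed, 5 higher and 37 lower, where 39.0% of all genes were called, led by Kcne2 (-1.26), Kcnv2 (-0.65), Kcne1l (-1.65), Kcng4 (0.72) and Kcnab2 (-0.63). A departure from additive effects on the log2 scale, the IL1A by TNF interaction, was called for 3 members, where 3.60% of all genes were called: Kcnv2 (-0.37, SE 0.10, FDR = 0.024), Kcnh6 (-0.37, SE 0.10, FDR = 0.0322) and Kcng4 (0.38, SE 0.12, FDR = 0.0493). With mouse as a fixed factor in place of a random block, 0 members were called by limma for the interaction (5 at an unadjusted p under 0.05), 0 between IL1A+TNF and IL1A (8 at that level) and 18 between IL1A+TNF and TNF, while IL1A+TNF against PBS had 39 calls. The shares of all genes called in the same fit were 0%, 0.00513%, 14.4% and 35.5% in that order. That fit held fewer retinas, since it kept only mice with both retinas in it.

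A second set of WT retinas, labelled as batch 2, gave the IL1A+TNF comparison again in other retinas. There 41 of 80 tested members fell and 4 rose, where 37.7% of all genes were called and 18.1% were called lower, with a median of -0.40. Of the calls, 38 were shared with batch 1 (38 of 49 there and 38 of 45 here), 34 of them lower and 4 higher in both. In batch 1 50.4% of all genes were called. Shared calls over all genes were not counted, so this overlap cannot be read as particular to channel genes. The 4 higher were Kcng4, Kcnk13, Kcnk6 and Kcnn4. Kcne2 held 30.3 to 39.5 CPM in PBS retinas and 8.65 to 19 after IL1A+TNF, a log2 change of -1.59 (SE 0.14, FDR = 2.1e-05), and Kcnj14 went from 370 to 486 CPM to 240 to 291 (-0.72, FDR = 3.97e-05). Neither pair of ranges overlapped. Kcne1l (-1.73, FDR = 0.000107), Kcnk6 (1.41, FDR = 0.000128), Kcnn4 (1.90, FDR = 0.000146), Kcnk13 (1.39, FDR = 0.00017), Kcng4 (0.59, FDR = 0.00492) and Kcnv2 (-0.56, FDR = 0.00729) moved in the direction seen in batch 1. The test of the difference in effect between batches called 0 of the members by limma, by edgeR or by DESeq2 (1, 0 and 0 at an unadjusted p under 0.05), and limma called 0% of all genes. The members' median difference, batch 2 minus batch 1, was -0.21, against 0.00 over all genes, and 67 of 82 estimates were below 0. That fit also held the Sarm1-/- retinas, and its errors were wide, as in Kcnc1 (-0.35, SE 0.29). Its 0 calls therefore do not show that the effects were equal.

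Sarm1 deficiency was examined at day 2, first in vehicle-injected eyes. Between Sarm1-/- PBS and WT PBS retinas 0 of 82 tested members were called by limma, by edgeR or by DESeq2 (3, 1 and 1 at an unadjusted p under 0.05), where 0.0397% of all genes were called. That fit held IL1A+TNF replicates 4 and 5, and this comparison is not given without them. Errors were wide, as in Kcna1 (0.15, SE 0.17) and Kcnc1 (0.11, SE 0.22), so 0 calls do not show that baseline levels were equal. With all 6 retinas, IL1A+TNF against PBS in Sarm1-/- mice gave 60 members lower and 4 higher, where 43.5% of all genes were called and 22.2% lower, with a median of -0.93. Without replicates 4 and 5 the counts were 22 lower and 3 higher (13% of all genes called) and the median was -0.26. The 3 that rose in the remaining retinas were Kcnk13 (1.13), Kcnk6 (0.79) and Kcnn4 (1.89), and Kcng4 was at 0.28 (FDR = 0.121).

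The members that led the list with all Sarm1-/- retinas show how far it rested on 2 of them. Kcnip4 was called at -1.38 (SE 0.20, FDR = 1.23e-07), and its 6 IL1A+TNF retinas, replicates 1 to 6, held 40.4, 33.8, 20.1, 5.01, 5.03 and 33.8 CPM against 39.8 to 49.1 in Sarm1-/- PBS retinas. Kcnj3 (-1.30, FDR = 6.11e-07) held 23.1, 19.3, 14.3, 2.53, 2.36 and 20.4 CPM. In both genes replicates 4 and 5 were far below the other 4, and without them the changes were -0.60 and -0.45. Kcne2 (-1.42, FDR = 1.26e-07) was less tied to those retinas, at 26, 18.3, 9.98, 5.64, 7.37 and 22.1 CPM, and was at -0.98 without them. Kcne1l was at -1.55 with and -1.20 without them, Kcnk13 at 1.25 and 1.13. The photoreceptor gene Kcnv2 did not single out the same retinas. It held 509, 504, 333, 485, 406 and 451 CPM, with replicate 3 lowest, and was at -0.39 with and without replicates 4 and 5.

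Calls between genotypes after IL1A+TNF depended on the same retinas, but not on them alone. The WT retinas of this fit came from both batches. With the second batch alone limma called 0 members, both in the comparison of genotypes and in the genotype by treatment interaction. With all retinas DESeq2 and edgeR called fewer members than limma in both. The shares of all genes called in these settings are not given, so the lost calls cannot be read as particular to channel genes. The cause of these differences in calls was not tested. Against WT IL1A+TNF, 38 members were lower in Sarm1-/- retinas and 0 higher (14.8% of all genes called, median -0.54), among them the Elk channel Kcnh8 (-0.98, FDR = 0.00118), the silent subunit Kcns2 (-0.83), the axonal Kv1.1 channel Kcna1 (-0.79) and the G protein-gated Kcnj5 (-0.94). Without replicates 4 and 5 limma called 0 members (17 at an unadjusted p under 0.05, 0.898% of all genes called), the median was 0.09 and these 4 genes were at -0.31, -0.06, 0.02 and 0.05. The genotype by treatment interaction called 35 members, all of them lower (8.75% of all genes called, 7.24% lower), led by Kcnj5 (-1.13, SE 0.24, FDR = 0.00512), Kcnj8 (-1.12), Kcns2 (-0.97), Kcna1 (-0.94) and Kcnh8 (-0.99). Without replicates 4 and 5 limma called 0 members (9 at an unadjusted p under 0.05) and 0% of all genes, and these 5 were at -0.13, -0.39, -0.19, -0.11 and -0.31. Of the members called with all retinas, 27 of 38 in the comparison of genotypes and 17 of 35 in the interaction had an estimate of the other sign without replicates 4 and 5. Summed RGC markers ran from 136 to 765 CPM, amacrine markers from 118 to 677 and bipolar markers from 283 to 1260 over the 6 Sarm1-/- IL1A+TNF retinas.

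**Figure D4:**
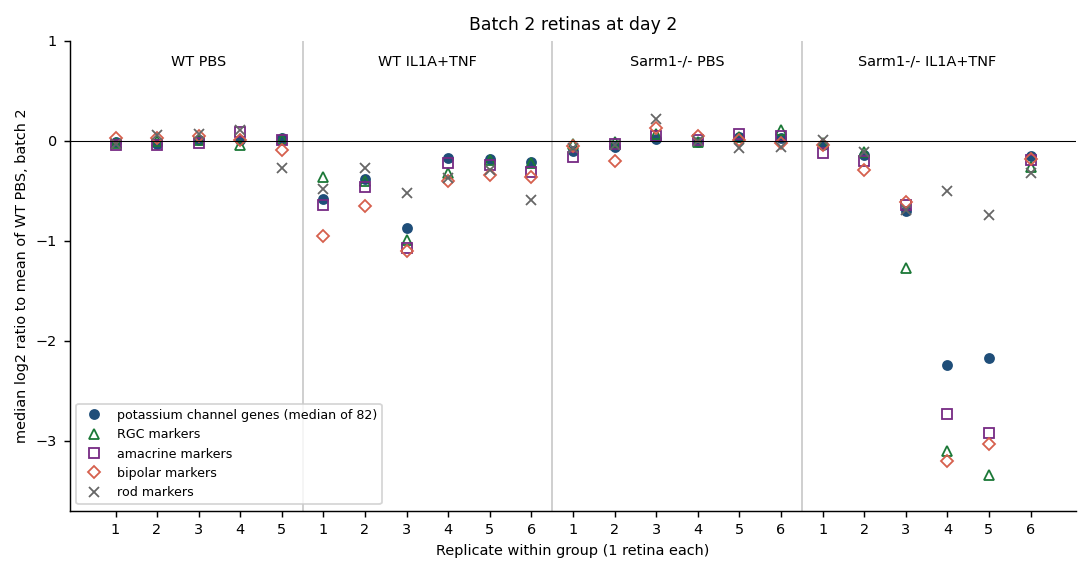
Median log2 level of the 82 tested potassium channel genes in each retina of batch 2, relative to the mean of WT PBS retinas of that batch, beside the median of RGC, amacrine, bipolar and rod markers in the same retina. Sarm1-/- IL1A+TNF replicates 4 and 5 stand apart at -2.24 and -2.17 for the channel genes.

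Vehicle-injected WT retinas also differed between days 2, 14 and 35. By limma's F test over the 3 days 40 of 81 tested members were called, where 36.2% of all genes were called. Of these, 31 were higher at both later days than at day 2 and 9 were lower at both. Over all 19372 genes tested, 3317 were called higher and 3699 lower, by the sign of the day 14 estimate. Kcnv2 rose from 505 to 758 CPM at day 2 to 655 to 797 at day 14 and 840 to 968 at day 35, log2 differences from day 2 of 0.29 and 0.56 (FDR = 9.23e-11), and the day 35 retinas lay above every other. Kcng4 went the other way, from 25.3 to 43.9 CPM to 22.8 to 26.9 and 18.4 to 23.6 (-0.40 and -0.57, FDR = 1.1e-07). Kcna1 rose by 0.07 and 0.27 (FDR = 2.02e-07), with all day 35 retinas (73.4 to 78.8 CPM) above all day 2 retinas (54 to 71.8), and Kcnc2 by 0.17 and 0.30 (FDR = 2.14e-07). Kcnk6 fell from 0.666 to 2.06 CPM to 0.394 to 0.888 and 0.338 to 0.756 (-1.13 and -1.33, FDR = 3.55e-07). Markers were called over the same days: 7 of 9 RGC, 5 of 6 amacrine, 3 of 6 bipolar, 5 of 6 rod and 4 of 6 cone markers were higher at day 14 than at day 2, and 8 of 8 microglia, 3 of 6 neutrophil and 3 of 4 monocyte markers lower. Microglia markers summed to 59.3 to 110 CPM at day 2, 33.2 to 45.5 at day 14 and 25.6 to 32.1 at day 35, and rod markers to 34300 to 53600, 48600 to 58100 and 50300 to 58200. Their part in the members' changes was not tested. Time since injection and age cannot be told apart in these groups.

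TNF against PBS at those later days gave 0 called members of 77 tested at day 14 by limma, by edgeR and by DESeq2 (11, 5 and 4 at an unadjusted p under 0.05) and 0 of 77 at day 35 (1 at that level by each), and limma called 0% of all genes at either day. At day 35 Kcnv2 differed by -0.03 (SE 0.03), Kcne2 by -0.03 (SE 0.06) and Kcnk6 by 0.01 (SE 0.24). Kcnj14 differed by -0.05 (SE 0.05) at day 14 and -0.09 (SE 0.04) at day 35.

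**Figure D5:**
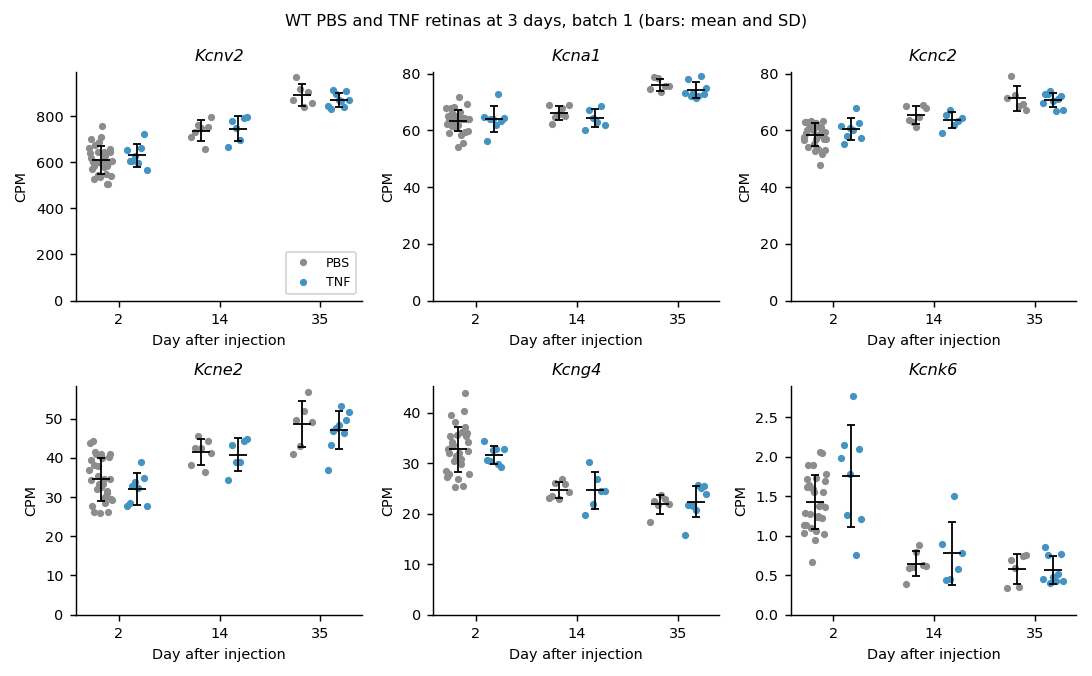
Level of selected potassium channel genes in WT retinas of batch 1 at 2, 14 and 35 days after PBS or TNF, as CPM. Points are retinas, and bars mark the mean and SD of each group. PBS retinas of Kcnv2 move from a median of 602 CPM at day 2 to 887 at day 35, and TNF retinas overlap PBS retinas of the same day.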

How the data were processed

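Raw counts per gene of whole-retina RNA-seq were deposited by the authors, made by alignment with STAR 2.7.9a to mm10 and counting with featureCounts of Subread 2.0.1, per the submitters' processing notes. Symbols, biotypes and exon lengths came from GENCODE M21, in which 35533 of 37315 identifiers had a symbol, and 4 rows that met the symbol rule were not protein-coding. The annotation release and the use of strand in counting are not given in the sources used here.

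Counts were analyzed in R 4.3.3 by the study's method. Genes were kept by filterByExpr of edgeR 4.0.16 (minimum count 10, minimum total count 15, minimum proportion 0.7, large group size 10), scaled by TMM and fitted with limma 3.58.1 by voom and duplicateCorrelation over 2 rounds, with sex as covariate and mouse as random block. P-values were adjusted by Benjamini-Hochberg over all genes (threshold 0.05). The Sarm1-/- fit took 81 retinas of 47 mice with batch as a further term, and days of PBS retinas were compared with an F test without the block. Eyes of a mouse share a mouse number in the labels, and the correlation within mice was 0.0515 at day 2, 0.284 at day 14, 0.0794 at day 35 and 0.00526 in the Sarm1-/- fit. Retina scores used log2 CPM with a prior count of 2. No pair of retinas of a group agreed within counting noise (smallest mean chi-square per gene 3.94). With 30014757 to 79064488 reads per library, values of a few hundredths of a CPM rest on single reads.

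Named were the called members with the 3 highest and 3 lowest changes per class after IL1A+TNF (mean of at least 0.5 CPM), the 5 with the smallest FDR elsewhere, the 2 with the highest level per kilobase in each class, and members with a textbook place in retina or immune cells. The other subunits of a family named in this way (Kcnc4, Kcnip2, Kcnmb2 and Kcnmb4) were added after their values were seen. Some members and partner genes that the rule named are not reported here. Members, lists and tests were chosen with earlier results of these data known. Alternatives were DESeq2 1.42.0, RLE size factors, edgeR quasi-likelihood, a minimum mean of 1 CPM, no filter, no sex term, mouse as fixed factor or absent, batch 2 alone and retinas left out. The fixed factor was fitted only on mice with both retinas in the fit, without sex and batch terms. Tests were checked on simulated counts.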

Additional observations from a re-analysis of the deposited data

Results flagged for a closer look

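In 231 sets of 4 to 10 retinas the highest or lowest value was checked against its neighbours by Dixon's criterion, and 19 stood out, where chance gives about 5 percent. IL1A replicate 8 was the lowest of its group in Kcnh2 (53.1 CPM), Kcnip1 (18.8 CPM), Kcnab2 (153 CPM) and Kcnab3 (23 CPM), and it was apart from the rest in Kcnj8 (1.92 CPM). IL1A replicate 7 stood apart in Kcnj13 (0.675 CPM). Among IL1A+TNF retinas of batch 1, replicate 9 stood apart in Kcnj2 (14.1 CPM) and Kcnd2 (19 CPM), and replicate 2 in Kcnip3 (27.5 CPM).

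Among PBS retinas the values were 7 CPM of Kcna3 in day 14 replicate 3, 18.2 CPM of Kcnd2 in day 14 replicate 2, 40.2 CPM of Kcnab3 in day 35 replicate 5, 0.156 CPM of Kcnj16 in WT replicate 4 of batch 2, and 0.873 CPM of Kcnk13 in Sarm1-/- replicate 4. Among TNF retinas of day 2 they were 51 CPM of Kcnab1 in replicate 3, 277 CPM of Kcnab2 in replicate 8, and a median of the members' log2 levels of 0.09 in replicate 6. At day 35, TNF replicate 6 stood apart in Kcna3 (7.32 CPM) and Kcnc1 (148 CPM).

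With all retinas limma's genotype by treatment interaction was called for 35 members, where 8.75% of all genes were called and 7.24% were called lower. Kcnj8 was at -1.12, Kcnj5 at -1.13, Kcns2 at -0.97, Kcna1 at -0.94 and Kcnh8 at -0.99 on the log2 scale. Without Sarm1-/- IL1A+TNF replicates 4 and 5 the count was 0, with 9 members at an unadjusted p under 0.05, and 0% of all genes were called. Batch 2 alone, edgeR and DESeq2 also called fewer members.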

How the results depend on the processing

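The count of members called for IL1A+TNF against PBS at day 2 stayed within 1.5 times of 49 under every alternative run, and so did that of WT batch 2 (33 to 43 with a retina left out). TNF alone gave 0 under each. With mouse as a fixed factor in place of the random replicate block, which compares eyes within mice, calls moved from 30 to 12 for IL1A against PBS, from 10 to 0 for IL1A+TNF against IL1A, from 42 to 18 for IL1A+TNF against TNF, from 3 to 0 for the IL1A by TNF interaction and from 35 to 0 for the genotype by treatment interaction, and no other count moved by over 1.5 times. That setting also left out mice without both retinas in the fit, and the sex and batch terms. The lost calls therefore cannot be assigned to the change of block alone. With mouse as a fixed factor Sarm1-/- PBS against WT PBS and Sarm1-/- IL1A+TNF against WT IL1A+TNF could not be estimated. The interaction of IL1A and TNF gave 5 calls with DESeq2 and 1 with no filter. Without IL1A replicate 8 (left out after the data were seen) calls were 17 for IL1A against PBS, 18 for IL1A+TNF against IL1A and 8 for the interaction. The share of all genes called moved too, for IL1A against PBS from 21.4% to 15.4% without that retina. Counts of members in this paragraph that lack such a share cannot be read as particular to channel genes. Sarm1-/- against WT after IL1A+TNF went from 38 to 0 in batch 2 alone, 8 with DESeq2, 3 with edgeR quasi-likelihood and 0 without Sarm1-/- IL1A+TNF replicates 4 and 5, and 1 to 50 with a retina left out in turn (1 without replicate 4, 2 without replicate 5). The genotype by treatment interaction went from 35 to 0 in batch 2 alone, 2 with DESeq2, 0 with edgeR quasi-likelihood and 0 without the 2 retinas, and 0 to 48 with a retina left out. IL1A+TNF in Sarm1-/- retinas went from 64 to 25 without the 2. Without the 2 retinas 27 of the 38 members called between the genotypes after IL1A+TNF changed sign, among the named ones Kcna1 (0.02) and Kcnj5 (0.05), as did 17 of the 35 called in the genotype by treatment interaction and 0 of the 64 called in Sarm1-/- retinas. Of the single results of members that the naming rule picked, under all alternatives, 815 kept direction and side of the threshold, 75 lost the call, 3 gained it and 2 (the same Kcna1 and Kcnj5) changed sign. The cause of these moves was not tested, beyond the fewer retinas that a left-out or fixed-factor setting has by construction. Members with few reads, among them Kcnn4, Kcnj15 and Kcnk5, have the widest errors.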

Other observations

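Partner genes of the channels moved with IL1A alone as well: Kcnj10 changed by 0.24 (SE 0.07, FDR = 0.0127) and Atp1b1 by -0.24 (SE 0.05, FDR = 0.000217) on the log2 scale, and 3 of 22 tested partners rose and 7 fell. Over all genes 21.4% were called there, and 9.45% were called lower. In WT retinas of batch 2 after IL1A+TNF, Kcnj10 changed by 0.62 (SE 0.07, FDR = 0.000123), Abcc8 by -0.68 (SE 0.12, FDR = 0.00174) and Slc12a5 by -0.51 (SE 0.10, FDR = 0.0028). After TNF alone limma called 0 of the 22 at day 2, at day 14 or at day 35.

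Kcnv2 and Kcng4, both silent partners of Kv2 subunits, had changes of opposite sign and like size on the log2 scale after IL1A+TNF against PBS in batch 1 (-0.60 and 0.69), in WT batch 2 (-0.56 and 0.59), in the IL1A by TNF interaction (-0.37 and 0.38) and at day 35 against day 2 of PBS retinas (0.56 and -0.57). The first, the third and the last of these share PBS retinas of day 2. In the genotype by treatment interaction neither gene was called (0.20 for Kcnv2 and -0.28 for Kcng4).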
